A study of Mus musculus with 2 samples.

Results

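The 8 genes described here are 7 immediate early genes, *Fos*, *Jun*, *Junb*, *Ier2*, *Egr1*, *Btg2* and *Phlda1*, and *Dusp1*, whose product inactivates the kinases that induce them. They were chosen by name with the measured UMI counts of these same WT and Cko bone marrow cells already known, so their levels and their differences between the libraries are given as a description. All 8 were among the 6001 genes listed in both libraries, of 7181 genes listed for the WT and 6735 for the Cko.

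The study asked how the bone marrow changes when the site-1 protease (S1P, the product of *Mbtps1*) is deleted in the osterix lineage, that is, in cells of the bone-forming line in which the *Osx* promoter drives Cre. The WT library came from a C57BL6/J mouse, a WT that the study describes as S1P f/f, and the S1P Cko library from a mouse of the same strain that carried the same floxed allele with *Osx*-Cre. Both were 21 days old. Cells of hindlimbs and forelimbs were crushed out of the bones, the bones were digested with warm collagenase, the red blood cells were lysed and the rest was run on the 10x Genomics platform. With 1 library from each genotype no difference between genotypes could be tested, and the intervals below are 95% intervals that cover counting error only.

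Immediate early genes are transcribed within minutes of a stimulus, without new protein synthesis, from promoters that are already accessible. Growth factors, cytokines and cell stress act on them through MAP kinases and through factors such as SRF and CREB, and their short-lived mRNAs disappear soon afterwards. *Fos*, *Jun* and *Junb* encode subunits of the AP-1 transcription factor, and *Egr1* encodes a zinc finger transcription factor. *Ier2* encodes a small nuclear protein, *Btg2* an antiproliferative protein that recruits the deadenylase complex to mRNAs, and *Phlda1* a pleckstrin homology-like domain protein. *Dusp1* encodes the nuclear dual-specificity phosphatase that switches off MAP kinases. The release of cells from tissue is known to induce many of these genes, warm enzyme digestion in particular, so a transcript found here may have been made in the animal or during preparation. These libraries hold no sample prepared another way, and the 2 origins cannot be told apart.

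The WT library held 6271 cells with a median of 6977 unique molecular identifiers (UMIs, each the count of 1 captured mRNA), and the Cko library 3662 cells with a median of 7440. Clustering of both libraries together, with the 8 genes left out of it, gave 21 clusters, of which 18 could be named from marker genes. Levels are counts-per-million values (CPM), the UMIs of a gene scaled to the total UMIs of the cells compared, and as the 10x kit counts 3′ ends they need no correction for gene length. In the GENCODE annotation of GRCm38, *Fos* lies at chr12:85473890-85477273 (+ strand), *Jun* at chr4:95049034-95052222 (-), *Junb* at chr8:84974484-84978718 (-), *Ier2* at chr8:84661331-84662852 (-), *Dusp1* at chr17:26505590-26562128 (-), *Btg2* at chr1:134075170-134079120 (-) and *Phlda1* at chr10:111506286-111508645 (+). *Mbtps1* stood at 31.9 CPM in the WT against 31.2 in the Cko, but 3′ tags do not test the deletion, so this checks neither label. *Sp7*, which encodes osterix, was listed for the WT alone, with 38 UMIs. *Xist* was listed for the Cko alone and *Ddx3y* and *Eif2s3y* for the WT alone, so the mice appear to differ in sex, and sex and genotype cannot be told apart. The WT and Cko cells shared 28 barcodes, and 2.03% of WT and 1.39% of Cko cells were called as doublets and kept.

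The promoters of *Dusp1* and *Btg2* are shown because these 2 genes were high together in maturing erythroid-like cells, where *Fos* was nearly absent, and that of *Fos* is shown beside them. The sequences are the 250 bases before the annotated start, from RefSeq on GRCm38.p6, which held 5 of the 8 genes. The RefSeq start of *Dusp1* lies inside the span that GENCODE gives for the gene, so its promoter is that of the RefSeq start alone. Capitals mark the full cAMP response element TGACGTCA, the site bound by CREB, or the TATA box TATAAA. The *Fos* promoter lies at chr12:85473640-85473889 (+ strand), that of *Dusp1* at chr17:26508473-26508722 (- strand) and that of *Btg2* at chr1:134079156-134079405 (- strand).
Fos: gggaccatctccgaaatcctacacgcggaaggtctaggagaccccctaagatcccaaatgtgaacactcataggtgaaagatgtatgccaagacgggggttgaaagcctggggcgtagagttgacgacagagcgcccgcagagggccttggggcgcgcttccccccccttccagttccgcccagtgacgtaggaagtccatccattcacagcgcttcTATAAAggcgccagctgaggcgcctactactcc
Dusp1: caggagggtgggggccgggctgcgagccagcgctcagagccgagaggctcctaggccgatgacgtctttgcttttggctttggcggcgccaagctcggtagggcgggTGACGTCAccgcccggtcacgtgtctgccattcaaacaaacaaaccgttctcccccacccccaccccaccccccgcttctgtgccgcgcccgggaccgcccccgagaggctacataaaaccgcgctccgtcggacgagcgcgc
Btg2: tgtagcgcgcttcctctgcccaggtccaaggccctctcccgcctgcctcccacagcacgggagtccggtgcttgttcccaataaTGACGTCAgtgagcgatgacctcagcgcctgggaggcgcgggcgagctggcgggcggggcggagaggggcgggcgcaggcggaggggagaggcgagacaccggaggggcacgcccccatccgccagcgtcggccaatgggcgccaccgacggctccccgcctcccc

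TGACGTCA reads the same on both strands, and it was found from -143 to -136 in the *Dusp1* promoter and from -166 to -159 in that of *Btg2*, counted back from the start. Of 32851 mouse promoters of this length, 508 (1.55%) held it. The shorter core TGACG, which lies inside TGACGTCA and was searched on both strands, was found in 17.8% of promoters and in those of *Fos*, *Junb*, *Dusp1* and *Btg2*. *Fos* held it at -129 to -125 and at -66 to -62, and its TATA box lay at -33 to -28. The AP-1 site TGANTCA and the SRF-binding CArG box were in none of the 5 windows, and the EGR site GCGNGGGCG was in that of *Btg2* alone. A match here is a match of letters, and bases further upstream were not searched.

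Each of the 8 genes had its own distribution over the cell types. Among clusters of at least 50 cells, *Ier2* was high in neutrophil-like and monocyte-like cells, *Btg2* and *Dusp1* in erythroid-like cells of middle stages, *Fos* and *Junb* in monocyte-like cells and the unnamed *Wfdc17* cluster of the Cko, and *Phlda1* in mature neutrophil-like cells. In the Cko the highest *Dusp1* level was in the *Wfdc17* cluster, at 77.5 CPM, above erythroid-like stage 3 at 61.7 CPM. *Btg2* in the Cko was second highest in plasmacytoid dendritic-like cells, at 210 CPM. The *Wfdc17* (181), *Myl4* early B cell-like (172), late B cell-like (168) and T/NK-like (144) clusters also stood above erythroid-like stage 2 (130). In the WT late B cell-like cells stood at 160 CPM, against 148 in stage 2. *Junb* in the Cko was higher in T/NK-like (107 CPM) and late B cell-like cells (81.5) than in monocyte-like cells (67.6). *Jun* and *Egr1* were scarce, with no level above 25.7 CPM for *Jun* or 18.4 CPM for *Egr1* in such a cluster. The 48 cells of the stromal/endothelial-like cluster, led by *Col1a2*, *Col1a1* and *Fabp4*, had the highest summed level of the 8 genes in the WT, 1493 CPM, and the second highest in the Cko, 853 CPM, after the unnamed *Wfdc17* cluster at 888 CPM.

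**Figure D1:**
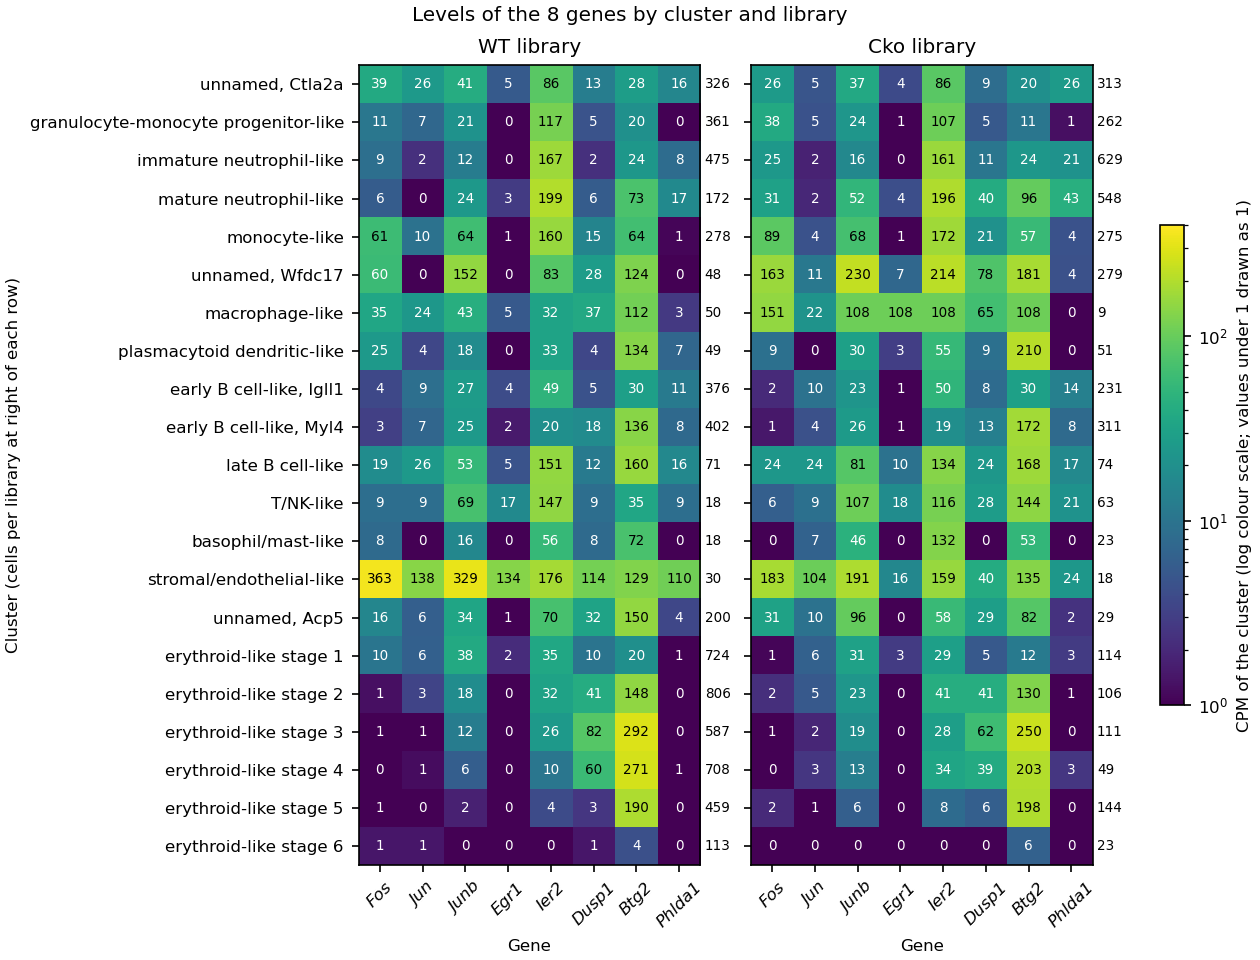
Level of each gene (columns, CPM on a log colour scale, printed in each field) in the 21 clusters (rows, with the number of cells at the right) of the WT library (left) and the Cko library (right). *Ier2* stands out in neutrophil-like and monocyte-like rows, and *Fos*, *Jun*, *Junb*, *Egr1*, *Dusp1* and *Phlda1* in the 30 WT stromal/endothelial-like cells. *Btg2* is high in erythroid-like stages 2 to 5 and also in plasmacytoid dendritic-like, late B cell-like and *Myl4* early B cell-like rows.

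*Fos* in the WT was highest, among clusters of at least 50 cells, in monocyte-like cells at 61.3 CPM (50.5 to 73.6) and in the unnamed *Ctla2a* cluster of *Cd34*-bearing cells at 38.5 CPM (32.7 to 45.1). In the Cko it was highest in the unnamed *Wfdc17* cluster, which carried *H2-Aa*, *Cd74* and *Apoe*, at 163 CPM (142 to 186), followed by monocyte-like cells at 89.2 CPM (77.7 to 102). In erythroid-like cells beyond stage 1 no value of a cluster of at least 50 cells exceeded 2.26 CPM in either library, and in the Cko early B cell-like cells of both clusters (2.05 and 1.48 CPM) and erythroid-like stage 1 (1.07 CPM) were as low. The interval of the first WT place did not meet that of the second. It overlapped that of the third, macrophage-like cells at 34.8 CPM (18.5 to 59.5, 13 UMIs). The 48 WT cells of the *Wfdc17* cluster stood at 59.8 CPM. In the Cko the intervals of the first and second places did not meet. The *Fos* UMIs behind these places lay in few cells. In the WT 76 of 114 in monocyte-like cells lay in 3 cells, and 144 of 156 in the *Ctla2a* cluster lay in 8. In the Cko 129 of 221 in the *Wfdc17* cluster and 115 of 219 in monocyte-like cells lay in 9 cells each. Counting intervals treat UMIs as independent and are too narrow for such levels, so the order of these places is not settled.

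*Jun* reached 25.7 CPM (21.0 to 31.1) in the WT *Ctla2a* cluster and 25.6 CPM (12.8 to 45.8) in WT late B cell-like cells, which do not differ beyond counting error. In the Cko, among clusters of at least 50 cells, it was highest in late B cell-like cells, at 24.0 CPM (11.5 to 44.1). The stromal/endothelial-like cells, 30 in the WT and 18 in the Cko, stood higher, at 138 and 104 CPM. *Jun* was nearly absent from neutrophil-like cells, with 8 UMIs in 647 WT cells and 15 in 1177 Cko cells. Among clusters of at least 50 cells, *Junb* was highest in monocyte-like cells in the WT (64.0 CPM, 53.0 to 76.5). In the Cko it was highest in the *Wfdc17* cluster (230 CPM, 205 to 257). In the WT the 48 cells of the *Wfdc17* cluster stood at 152 CPM and the 30 stromal/endothelial-like cells at 329 CPM. *Egr1* had only 112 UMIs in all WT cells and 75 in all Cko cells, and 28 of the WT UMIs lay in 5 stromal/endothelial-like cells.

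*Ier2* was high in granulocytic cells of both genotypes. In mature neutrophil-like cells it stood at 199 CPM (167 to 235) in the WT and 196 CPM (179 to 213) in the Cko, and in immature ones at 167 CPM (154 to 181) and 161 CPM (150 to 171). It was present in granulocyte-monocyte progenitor-like cells too, at 117 CPM in the WT against 107 in the Cko. In the Cko the *Wfdc17* cluster was as high, at 214 CPM (190 to 240).

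*Phlda1* was found in neutrophil-like, B cell-like and *Ctla2a* cells and was scarce in the erythroid line. Among clusters of at least 50 cells its level was highest in mature neutrophil-like cells, at 17.1 CPM (8.82 to 29.8) in the WT and 43.4 CPM (35.7 to 52.2) in the Cko. In the WT this did not differ beyond counting error from late B cell-like cells at 16.3 CPM or the *Ctla2a* cluster at 15.8 CPM. The 30 WT stromal/endothelial-like cells stood above all of these, at 110 CPM (69.6 to 165). In the 587 WT cells of erythroid-like stage 3 no *Phlda1* UMI was found, and a count of 0 allows up to 3.

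The genes whose levels were most like those of *Fos* over 31 points (a cluster in a library, at least 50 cells) were *Tgfbi* (Pearson's r = 0.906 on log2 CPM), *App* (0.901) and *Idh1* (0.898). Those most like *Junb* were *Mcl1* (0.941), *Chmp1a* (0.917) and *Ptpn1* (0.915), and those most like *Jun* were *Serpina3f* (0.817), *Ppap2b* (0.750) and *Hadh* (0.749). The points share 2 libraries and are not independent.

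In the erythroid-like line, *Btg2* and *Dusp1* were low before hemoglobin, high at middle stages and low again at the end, while *Egr1* and *Phlda1* had few UMIs throughout and *Fos* had few beyond stage 1. The 6 erythroid-like clusters are numbered here by the share of their UMIs that came from 4 hemoglobin genes, from 1.30% at stage 1 to 90.3% at stage 6 in the WT. Because hemoglobin takes up so much of the total, levels here and in the next paragraph are CPM computed over the UMIs of all other genes. *Btg2* in the WT was at 19.8 in stage 1, 169 in stage 2, 585 in stage 3, 866 in stage 4 and 1014.5 in stage 5. In the Cko it was at 11.9, 156, 540, 607 and 908 in the same stages. On the CPM scale, with hemoglobin counted, the WT level was highest in stage 3, at 292 CPM, and lower in stages 4 and 5, at 271 and 190 CPM, so the stage of the highest *Btg2* level depends on the scale. Stage 6 held 3 *Btg2* UMIs in 113 WT cells and 1 in 23 Cko cells.

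*Dusp1* was high over fewer stages. On the same scale its WT level went from 10.3 in stage 1 through 46.7 and 164 to 192 in stage 4, and was at 13.8 in stage 5. The Cko values were 5.40, 49.8, 133 and 117 for stages 1 to 4 and 28.1 for stage 5. On either scale and in both libraries *Dusp1* was lower in stage 5 than in stages 2 to 4. *Fos* in the WT was at 10.4 on that scale in stage 1 and between 0.774 and 4.61 in stages 2 to 5, where each stage held 11 or fewer UMIs.

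Between stage 1 and stage 3 of the WT, on the CPM scale, 2 of the 5 members with at least 100 UMIs over both stages were 1.5-fold or more higher (*Dusp1* and *Btg2*) at stage 3 and 2 were as much lower (*Fos* and *Junb*). Of 4940 genes 10.9% were as much higher and 70.7% as much lower at stage 3. *Fos*, with 135 UMIs in stage 1 and 3 in stage 3, reached the limit through stage 1, so its part of the count is no support. In the Cko *Btg2* was higher and *Junb* lower, of 3 members at that limit, against 13.5% and 68.1% of 3361 genes. There *Btg2* had 33 UMIs in stage 1 and 263 in stage 3, and *Junb* 86 and 20. Neither would have reached the limit at its lower level in both stages, so the Cko shares are no support. Over the 31 points of cluster and library, *Btg2* and *Dusp1* had r = 0.674, while *Fos* had r = 0.106 with *Dusp1* and -0.173 with *Btg2*.

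**Figure D2:**
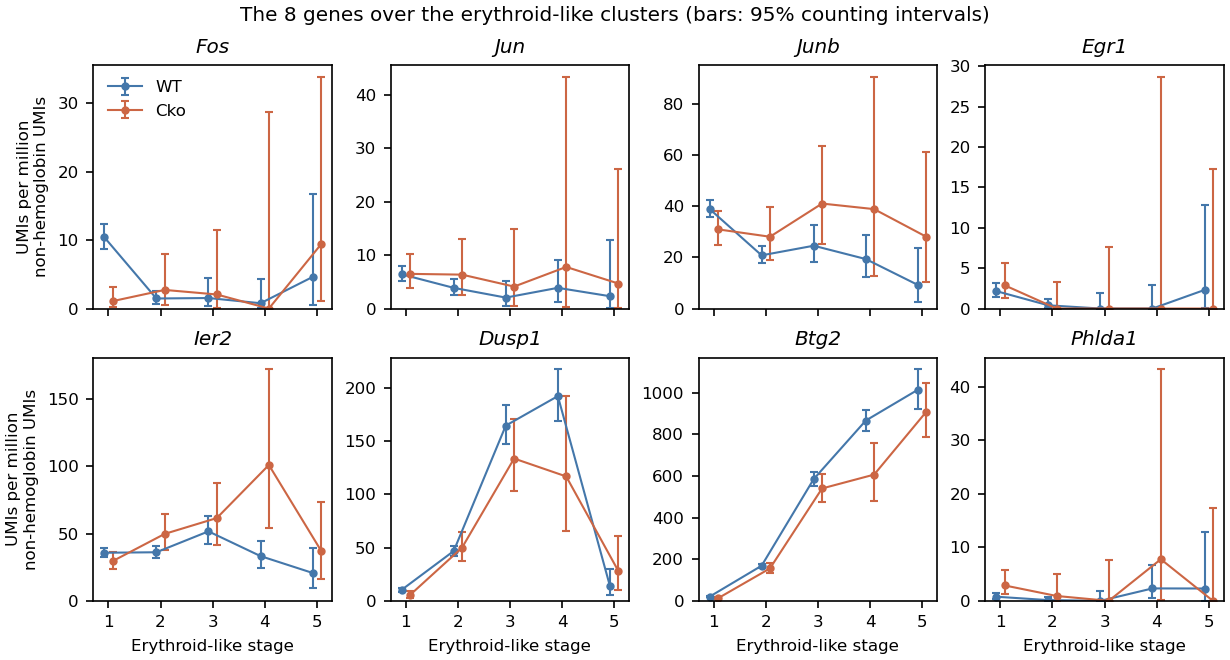
Levels of the 8 genes (CPM over UMIs other than hemoglobin, with 95% counting intervals) over erythroid-like stages 1 to 5 in the WT (blue) and the Cko (orange), with a separate vertical scale for each gene. *Btg2* reaches 1014.5 in WT stage 5 and *Dusp1* peaks at 192 in WT stage 4, whereas no level of *Fos*, *Jun*, *Egr1* or *Phlda1* is above 10.4.

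The 8 genes differed also in how their UMIs were spread over cells. *Fos* was concentrated in few cells. In the Cko 299 of 3662 cells held any *Fos* UMI, and 26 of them, with 10 or more each, held 56.2% of all *Fos* UMIs of that library. In the WT 169 of 6271 cells held any, and 20 cells with 10 or more held 57.4%. *Btg2* was spread thinly over many cells, with only 3 cells of 10 or more UMIs in each library, holding 0.648% of its UMIs in the WT and 1.54% in the Cko. *Ier2*, *Junb* and *Dusp1* were spread more like *Btg2* than like *Fos*, with between 2.25% and 11.9% of their UMIs in cells with 10 or more. *Phlda1* in the Cko had 2 cells that held 85 of its 466 UMIs.

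The variance of UMIs per cell over their mean (the Fano factor, which is 1 for even random sampling) was 32.6 for *Fos* in the Cko immature neutrophil-like cells. In the same cells it was 1.37 for *Btg2* and 1.19 for *Phlda1*. There 131 of 140 *Fos* UMIs lay in 7 cells, and a counting interval, which treats UMIs as independent, is too narrow for such a level. In Cko monocyte-like cells *Fos* was less concentrated, with 115 of 219 UMIs in 9 cells. The share of cells with 4 or more *Fos* UMIs is given below beside the *Fos* ratios for this reason.

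**Figure D3:**
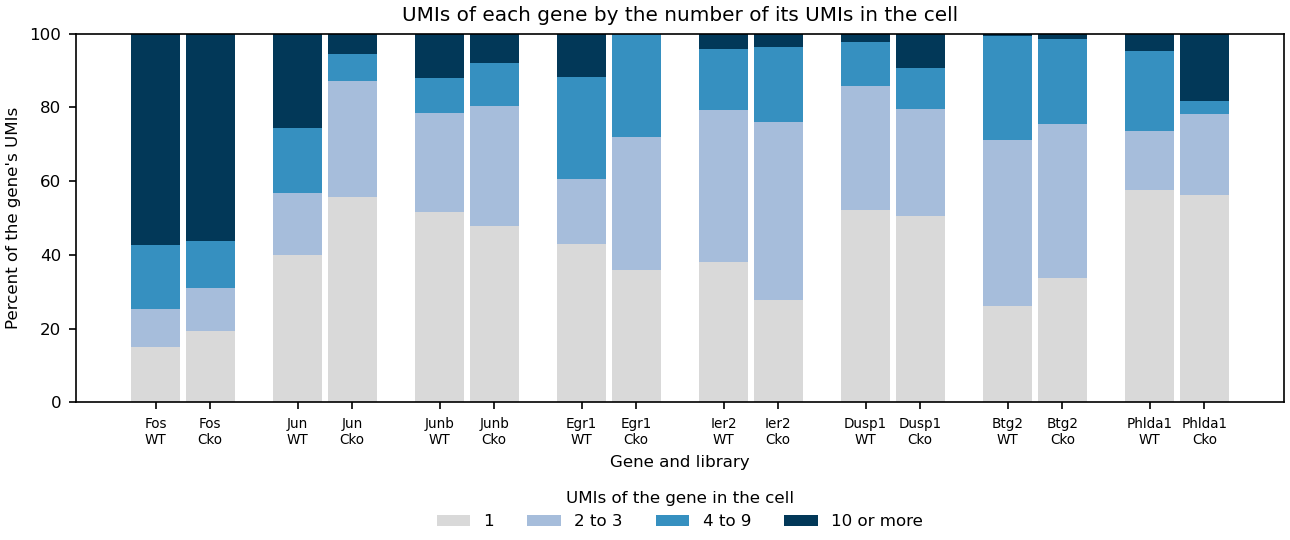
Percent of each gene's UMIs (vertical axis) that lay in cells with 1, 2 to 3, 4 to 9, or 10 or more UMIs of that gene, for each gene and library (bars, all cells). More than 56% of *Fos* UMIs lay in cells with 10 or more in both libraries, against 0.648% and 1.54% for *Btg2*.

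Cells with many *Fos* UMIs held the other immediate early genes as well. A total of 88 cells had 4 or more *Fos* UMIs, 39 in the WT (0.622% of cells, 0.443 to 0.849) and 49 in the Cko (1.34%, 0.992 to 1.77), and they held 71.2% of all *Fos* UMIs. Each other gene's UMIs in these cells were set against the number expected from the remaining cells of the same cluster and library at the same total of UMIs. *Egr1* was 108-fold above that (110 UMIs, 1.02 expected), *Jun* 35.7-fold, *Dusp1* 17.4-fold, *Junb* 9.71-fold, *Ier2* 4.92-fold, *Btg2* 4.80-fold and *Phlda1* 2.86-fold. Of 5509 genes at the limit of 20 observed plus expected UMIs, 3.27% were 2-fold or more above the expected number and 1.18% as much below it. *Egr1* and *Jun*, with 1.02 and 5.77 UMIs expected, could reach that limit only by passing 2-fold, so the share is no support for them.

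These genes were above the expected number in both libraries, in another order. In WT cells *Egr1* was 84.4-fold, *Jun* 49.2-fold and *Dusp1* 16.2-fold above the expected number. In Cko cells they were 187-fold, 15.6-fold and 18.4-fold above it. *Phlda1* was the least tied to *Fos*, at 3.97-fold in the WT and 1.94-fold in the Cko. All 11 cells with 4 or more *Egr1* UMIs also had 4 or more *Fos* UMIs, as did 17 of 24 such cells for *Jun*, 26 of 51 for *Dusp1* and 40 of 82 for *Junb*. For *Btg2* only 24 of 448 did.

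Other genes of the same response were also high in these cells, and the chaperone and upstream kinase genes at the limit were near the expected number. Of 24 other early response genes at the limit, 12 were 2-fold or more above the expected number and none was 2-fold below it. Among them were *Nr4a1* (35.2-fold) and *Nr4a2* (22.5-fold), nuclear receptors without a known hormone, *Socs3* (9.41-fold), an inhibitor of cytokine signalling, and *Zfp36* (8.78-fold), which destabilizes short-lived mRNAs. *Nr4a1*, *Nr4a2* and *Socs3* had 2.96, 1.24 and 3.08 UMIs expected, and *Cyr61* and *Ier3*, also among the 12, had 2.30 and 6.03. With so few expected they could reach the limit only by passing 2-fold, so their part of the count is no support. All 49 *Cyr61* UMIs in the cells with 4 or more *Fos* UMIs lay in stromal/endothelial-like cells. None of 12 heat shock and chaperone genes reached 2-fold, with a range from 0.974-fold to 1.41-fold. None of 11 genes for MAP kinases and their transcription factors did, with a range from 0.825-fold to 1.36-fold. The median over all genes was 1.01-fold. *Fosb* and *Atf3*, listed for the WT alone, had 31 of 42 and 28 of 55 UMIs in the 39 WT cells, which held 0.957% of the library's UMIs. *Hspa1a* and *Bag3*, heat shock and chaperone genes also listed for the WT alone, had 6 of 29 and 2 of 131 UMIs there. *Hspb1*, a heat shock gene under the limit, had 7 UMIs in the 88 cells of both libraries against 2.64 expected.

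The 20 genes highest above expectation also held genes of 2 other kinds, named here after their values were seen. *Col2a1*, *Col10a1*, *Acan*, *Col9a1* and *Hapln1*, cartilage genes, had all their UMIs among the 88 cells in 1 cell each, of the stromal/endothelial-like cluster. *Ccl3* (45.9-fold, in 13 cells), *Ccl4* (35.4-fold, in 8 cells), *Cd14* (22.9-fold, in 26 cells) and *Osm* (13.5-fold, in 29 cells), chemokine and cytokine genes and a receptor of myeloid cells, had none there. Without the stromal/endothelial-like cells, which held 4 of the 88, *Egr1* was 130-fold, *Jun* 38.5-fold and *Dusp1* 18.4-fold above the expected number. The 88 cells had a median of 10800 UMIs against 7116 in the others, or 1.13 times the median of their own cluster and library. Their median mitochondrial share was 2.41% against 2.10%, and 2 of them were called as doublets. The part of depth in the co-occurrence was not tested beyond the scaling by UMIs.

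**Figure D4:**
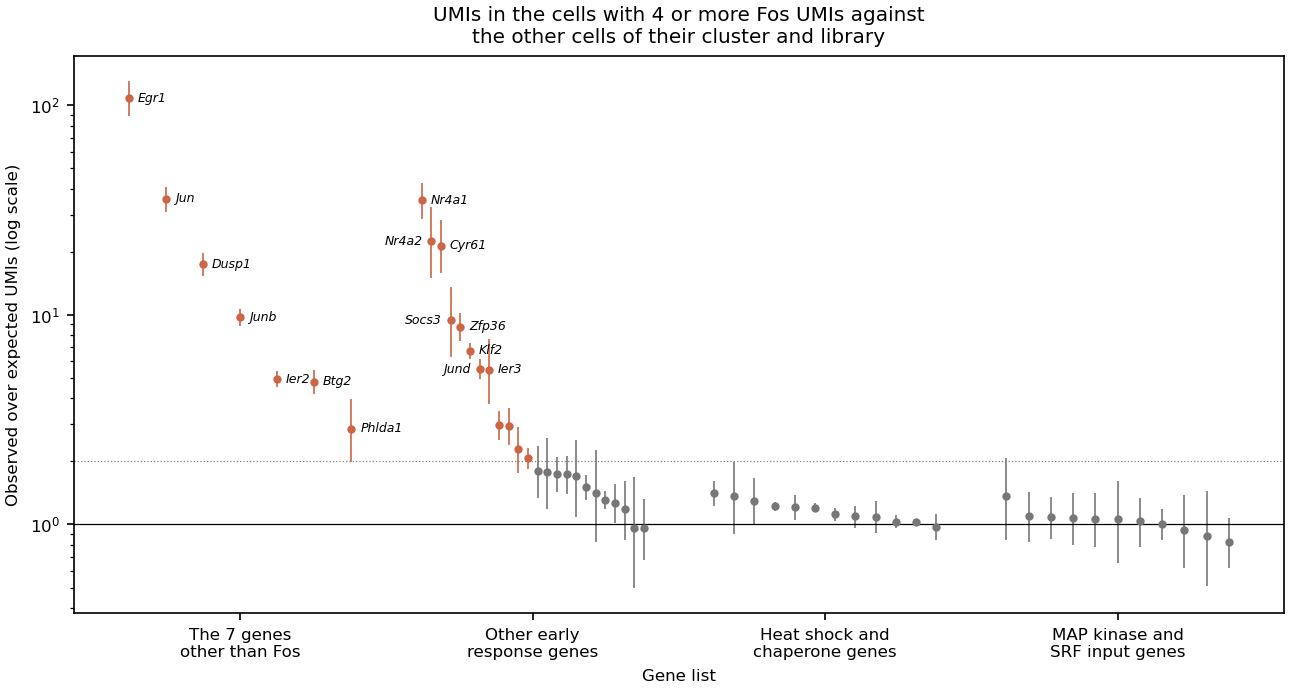
UMIs of single genes in the 88 cells with 4 or more *Fos* UMIs over the number expected from the other cells of the same cluster and library (log axis, points, with 95% counting intervals), by gene list, orange at 2-fold or more above. *Egr1* is highest at 108-fold, and all heat shock, chaperone and MAP kinase genes with at least 20 observed plus expected UMIs lie below the dotted line at 2-fold.

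In neutrophil-like cells several members were higher in the Cko than in the WT. Of 6 members with at least 100 UMIs there, *Dusp1*, *Fos*, *Phlda1* and *Junb* were 1.5-fold or more higher in the Cko and none was as much lower, where 4.07% of 4250 genes were as much higher and 4.09% as much lower. *Fos*, *Dusp1* and *Phlda1* had 35, 12 and 41 UMIs in the WT against 220, 164 and 233 in the Cko. They reached the limit mainly through the Cko library, and *Dusp1* would not have reached it at its WT level in both. The count of members is no support for a difference. *Jun* and *Egr1*, which did not reach the limit, had 8 and 3 UMIs in the WT and 15 and 12 in the Cko. The summed level of the 8 genes was 242 CPM in the WT against 323 in the Cko, a ratio of 1.34 (1.24 to 1.44). *Ier2*, with the most UMIs, had a ratio of 0.995 (0.910 to 1.09). The median log2 ratio of all genes at the limit in these cells was -0.05. With the libraries clustered separately, which put 808 WT and 1227 Cko cells in the class, 3 members passed 1.5-fold, and the log2 ratio of *Junb* was 0.29 in place of 0.94.

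*Dusp1* had 12 UMIs in 12 of 647 WT neutrophil-like cells and 164 UMIs in 99 of 1177 Cko cells, that is, 2.85 CPM and 19.8 CPM. The ratio was 6.95 (3.87 to 13.7). In the mature cluster alone *Dusp1* was at 5.69 CPM in the WT against 40.3 in the Cko, a ratio of 7.08 (2.68 to 26.5), with 4 of 172 WT cells and 62 of 548 Cko cells holding a UMI. After every cell was thinned to 3000 UMIs these shares were 2.33% (0.637 to 5.85) and 8.39% (6.21 to 11), at medians before thinning of 3752.5 and 4435.5 UMIs. As a reference for free RNA, 1 of 113 WT cells of erythroid-like stage 6, at a median of 6130 UMIs, held a *Dusp1* UMI (0.885%). With the cells of 4 or more *Fos* UMIs left out, an alternative chosen after seeing the data, the log2 ratio of *Dusp1* in neutrophil-like cells was 2.45 in place of 2.80, and with the libraries clustered separately it was 1.2.

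The difference in *Phlda1* was spread over many cells. In immature neutrophil-like cells it was at 8.27 CPM in the WT against 21.2 in the Cko (ratio 2.57, 1.70 to 4), and in mature ones at 17.1 and 43.4 (ratio 2.54, 1.40 to 5.07). The share of cells moved with the level: in the mature cluster 12 of 172 WT cells and 99 of 548 Cko cells held a UMI, and no cell of either neutrophil-like cluster in either library held more than 3. The thinned shares were 5.81% (2.82 to 10.4) in the WT and 12.2% (9.60 to 15.3) in the Cko. In the immature cluster they were 2.95% (1.62 to 4.90) and 7.79% (5.82 to 10.2).

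*Fos* in neutrophil-like cells was at 8.31 CPM in the WT against 26.6 in the Cko, a ratio of 3.20 (2.23 to 4.71). Of the 220 Cko UMIs 188 lay in 14 cells, and of the 35 WT UMIs 14 lay in 2 cells. The share of cells with 4 or more was 1.19% (0.652 to 1.99) in the Cko and 0.309% (0.0375 to 1.11) in the WT, and these intervals overlap. Without those cells the log2 ratio turned from 1.68 to -0.35, so the difference in *Fos* level rested on 16 cells. In the immature cluster 12 of 475 WT cells and 15 of 629 Cko cells held any *Fos* UMI, 2.53% and 2.38%. *Junb*, at 14.2 CPM in the WT against 27.4 in the Cko, had a ratio of 1.92 (1.44 to 2.6), and its log2 ratio went from 0.94 to 0.75 when those cells were left out.

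The 2 neutrophil-like clusters differ in the members themselves, and their proportions differed between the libraries. Mature cells were 172 of 647 neutrophil-like cells in the WT and 548 of 1177 in the Cko. In the Cko, *Junb*, *Dusp1*, *Btg2* and *Phlda1* were 1.5-fold or more higher in mature than in immature cells, 4 of the 6 members at the limit, where 9.62% of 3691 genes were. In the WT *Btg2* was, 1 of 2 at the limit, where 8.28% of 2633 genes were. *Dusp1* in the Cko had 60 UMIs in immature and 104 in mature cells, and *Btg2* in the WT had 83 and 51. At their immature levels in both clusters neither would have reached the limit, so for them these shares are no support. Within the immature cluster the Cko had higher *Fos* (ratio 2.78) and *Phlda1*, 2 of 5 at the limit, where 3.57% of 3974 genes were as much higher and 2.29% lower, and within the mature cluster higher *Junb* (2.13), *Dusp1* and *Phlda1*, 3 of 5, where 7.79% of 1798 genes were higher and 3.06% lower. These members reached the limit through the Cko library, with 31 UMIs in the WT and 140 in the Cko for *Fos* and 29 and 121 for *Phlda1* in the immature cluster, and 17 and 133 for *Junb*, 4 and 104 for *Dusp1* and 12 and 112 for *Phlda1* in the mature one, so nothing is read from these counts of members. *Btg2* had a ratio of 1.46 over both clusters, but 1.01 (0.762 to 1.34) in immature and 1.33 (0.981 to 1.83) in mature cells.

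**Figure D5:**
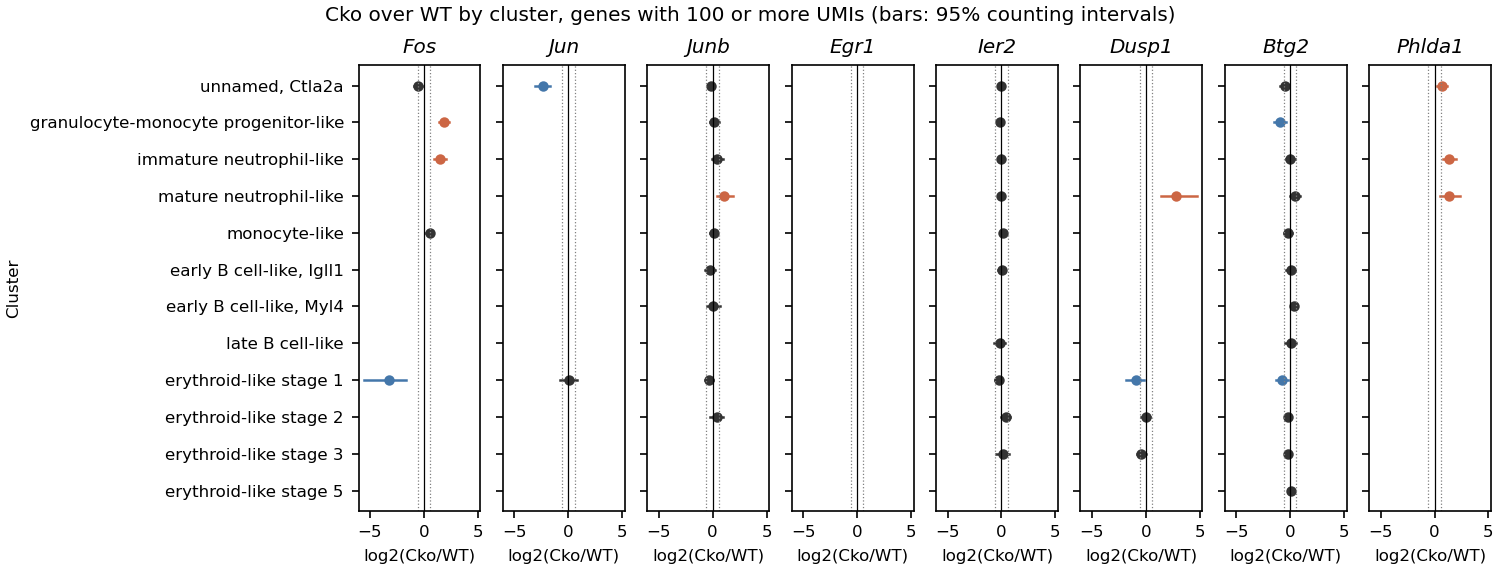
Log2 of the Cko over WT ratio (horizontal axis, points, with 95% counting intervals) of each gene in 12 clusters with at least 50 cells in each library, for genes with 100 or more UMIs over both libraries. Dotted lines mark 1.5-fold, orange points are higher in the Cko and blue points lower, and *Dusp1* in mature neutrophil-like cells (2.82) and *Fos* in erythroid-like stage 1 (-3.26) lie farthest out.

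In monocyte-like cells no member at the limit passed 1.5-fold, 0 of 4, where 3.3% of 3815 genes were as much higher and 5.06% as much lower. *Fos* came nearest, at 61.3 CPM in the WT against 89.2 in the Cko (ratio 1.46, 1.16 to 1.84). It was found in 37 of 278 WT cells and 89 of 275 Cko cells, and after thinning in 8.99% and 17.8% of them, while cells with 4 or more were 1.08% (0.223 to 3.12) and 3.27% (1.51 to 6.12). With the cells of 4 or more left out of both libraries the log2 ratio of *Fos* was 1.09 in place of 0.54, past 1.5-fold. *Ier2*, *Junb* and *Btg2* had ratios of 1.08, 1.06 and 0.890, all with intervals that include 1. Summed over the 8 genes the ratio was 1.11 (1.01 to 1.22). The unnamed *Wfdc17* cluster, which carries markers of several myeloid types, held 48 WT and 279 Cko cells, and its summed level was 447 CPM in the WT against 888 in the Cko. At resolution 0.4, where more cells counted as monocyte-like (347 WT and 592 Cko), 3 members passed 1.5-fold, and with classes from marker scores 2 did. With the libraries clustered separately (730 WT and 328 Cko cells) 6 members did, and the summed log2 ratio was 1.56 in place of 0.15, so the monocyte-like result depends on how the cells are classed.

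In B cell-like cells none of 6 members at the limit passed 1.5-fold, where 2.42% of 4952 genes were as much higher and 3.13% as much lower. The summed ratio was 1.10 (1.01 to 1.19), a log2 ratio of 0.13. With the libraries clustered separately the summed log2 ratio was -0.19 (-0.30 to -0.076) and 1 member passed 1.5-fold. *Btg2*, at 74.4 CPM in the WT against 94.6 in the Cko, had a ratio of 1.27 (1.12 to 1.45). *Jun*, *Junb*, *Ier2*, *Dusp1* and *Phlda1* had ratios between 0.917 and 1.19, each with an interval that includes 1. By cluster none of 2, 3 and 2 members at the limit passed 1.5-fold, where 2.5% and 4.95% of genes in the *Myl4* early B cell-like cluster, 2.1% and 3.95% in the *Igll1* one and 10.4% and 9.32% in late B cell-like cells were higher and lower.

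In erythroid-like cells the Cko had lower *Fos*, 1 of 6 members at the limit, where 6.64% of 5151 genes were 1.5-fold or more lower and 6.5% as much higher. *Fos* had 153 UMIs in 3397 WT cells and 9 in 547 Cko cells, 4.67 against 1.34 CPM (ratio 0.288, 0.129 to 0.561). Most of this came from stage 1, with 135 UMIs in 27 of 724 WT cells and 3 UMIs in 3 of 114 Cko cells. There, 9 WT cells with 4 or more held 109 of the UMIs (1.24% of cells, 0.570 to 2.35), and 0 of 114 Cko cells had as many, which allows up to 3.18% (exact binomial). In stage 1 *Dusp1* and *Btg2* were lower in the Cko as well, with ratios of 0.530 (0.289 to 0.906) and 0.604 (0.407 to 0.869), so 3 of 6 members at the limit were 1.5-fold or more lower, where 8.94% of 4969 genes were and 6.84% were as much higher. *Fos* and *Dusp1* reached the limit in stage 1 through the WT library, with 135 and 133 UMIs there against 3 and 15 in the Cko. *Fos* did so over all erythroid-like cells as well, so no support is read from either count of lower members. In stages 2, 3 and 5 none of 4, 3 and 1 members at the limit passed 1.5-fold, where 2.85% and 10.8% of genes in stage 2, 5.61% and 18.3% in stage 3, and 29.9% and 12.2% in stage 5 were higher and lower. Without the cells of 4 or more *Fos* UMIs the log2 ratio of *Fos* over all erythroid-like cells was -0.0073 in place of -1.80, and with the libraries clustered separately it was -0.084.

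*Fos* in granulocyte-monocyte progenitor-like cells was at 10.7 CPM in the WT against 38.4 in the Cko (ratio 3.6, 2.57 to 5.12), where 2.85% of 4566 genes were as much as 1.5-fold higher. Of the 152 Cko UMIs 133 lay in 7 of 262 cells, and of the 46 WT UMIs 30 lay in 5 of 361 cells. *Fos* reached the limit there through the Cko library, so the share of all genes is no support for a difference. *Btg2* was lower in the same cells, at 20.2 CPM in the WT against 10.6 in the Cko (ratio 0.526, 0.355 to 0.768). Of all genes there, 3.37% were 1.5-fold or more lower. *Btg2* had 87 WT UMIs against 42 Cko UMIs. At its Cko level over both libraries it would have stayed under the limit, so this share is no support. In the unnamed *Ctla2a* cluster *Jun* was at 25.7 CPM in the WT against 4.89 in the Cko (ratio 0.191, 0.117 to 0.299), where 7.8% of 5141 genes were 1.5-fold or more lower. Of the 104 WT *Jun* UMIs there, 73 lay in 5 cells. As *Jun* reached the limit in this cluster through the WT library, with 24 UMIs in the Cko, that share is no support either. *Phlda1* was higher in the Cko (ratio 1.64, 1.2 to 2.25), where 2.18% of genes were, but 99 of its 127 Cko UMIs lay in 5 cells and the share of cells with a UMI was 7.06% in the WT and 7.99% in the Cko.

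Over all non-erythroid cells, whose mixture of types differed between the libraries, *Fos* (ratio 1.65) and *Phlda1* (1.89) were 1.5-fold or more higher and *Jun* (0.479) as much lower in the Cko, of 8 members at the limit, where 3.81% of 5825 genes were higher and 9.61% lower.

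Other early response genes also differed between the libraries, in numbers that varied by cell type. Of 14 other early response genes that reached 100 UMIs in the neutrophil-like class, *Mcl1*, which encodes a survival protein of the BCL2 family (ratio 1.56), and *Sgk1*, a kinase gene (1.54), were 1.5-fold or more higher in the Cko and none was as much lower, where 4.07% of all genes were higher and 4.09% lower. *Zfp36* was next at 1.39, and *Ier5*, *Gadd45b* and *Jund* were lowest, at 0.739, 0.750 and 0.915. Their median log2 ratio was 0.21, against 1.24 for the 6 members and -0.05 for all genes. In monocyte-like cells *Nfkbia*, the inhibitor of NF-kB that NF-kB itself induces, was at 72.0 CPM in the WT against 232 in the Cko (ratio 3.22, 2.66 to 3.91). *Klf2*, which encodes a transcription factor of quiescent cells, was at 189 CPM in the WT against 101 in the Cko (ratio 0.534, 0.452 to 0.630), and the other 11 of 13 did not pass 1.5-fold, where 3.3% of all genes were higher and 5.06% lower. *Rhob* and *Btg1* followed *Nfkbia* at 1.42 and 1.29, and *Jund* and *Ier5* followed *Klf2* at 0.786 and 0.896.

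In erythroid-like cells 4 of 13 other early response genes were 1.5-fold or more higher in the Cko and none was as much lower, where 6.5% of all genes were higher and 6.64% lower. *Cebpb*, which encodes a transcription factor, had 551 UMIs in the WT and 335 in the Cko (ratio of CPM 2.97, 2.59 to 3.41). *Zfp36l2*, which encodes an mRNA-destabilizing protein, *Myc* and *Ppp1r15a*, a gene of the stress response, had ratios of 2.23, 1.99 and 1.84. The mixture of erythroid-like stages differed between the libraries, with 708 of 3397 WT cells and 49 of 547 Cko cells in stage 4, and its part in these ratios was not tested. In B cell-like cells *Cebpb* was higher (ratio 1.52, 1.04 to 2.26) and *Ppp1r15a* lower (0.411, 0.259 to 0.638), 1 and 1 of 16, where 2.42% and 3.13% of all genes were. *Cebpb* had 48 UMIs in the WT and 67 in the Cko there, and *Ppp1r15a* 77 and 29. Neither would have reached the limit at its lower level in both libraries, so these shares are no support. In the mature neutrophil-like cluster *Cebpb* was higher (ratio 1.95), 1 of 9, where 7.79% of all genes were, and in the immature one *Mcl1* was (1.64), 1 of 12, where 3.57% were.

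No heat shock or chaperone gene at the limit was 1.5-fold or more higher in the Cko in neutrophil-like or monocyte-like cells. Cell handling can also induce genes of this class, and its part was not tested. *Hspa1a* and *Bag3*, listed for the WT alone, could not be compared. Of 11 at the limit in neutrophil-like cells, none was 1.5-fold higher and *Hspe1*, which encodes a mitochondrial chaperonin, was as much lower (ratio 0.621), where 4.09% of all genes were lower. *Dnajb1*, *Hspa8* and *Ubb* were highest, at 1.23, 1.17 and 0.974, and *Hsp90aa1* and *Hspa9* were next lowest, at 0.751 and 0.758. In monocyte-like cells *Hspa9* (0.589), *Hsp90aa1* (0.612) and *Hspe1* (0.638) were 1.5-fold or more lower and none of 11 was higher, where 5.06% of all genes were lower and 3.3% higher. *Hspa8*, *Dnajb1* and *Hsp90ab1* were highest there, at 1.30, 1.11 and 1.0.

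Of the MAP kinase and SRF input genes none passed 1.5-fold in neutrophil-like (0 of 9) or monocyte-like cells (0 of 8). Of all genes, 4.07% were as much higher and 4.09% lower in neutrophil-like cells, and 3.3% and 5.06% in monocyte-like cells. In the immature neutrophil-like cluster *Mapkapk2* was as much lower in the Cko (ratio 0.659), 1 of 8, where 2.29% of all genes were. In the mature one *Mapk14* was (0.618), 1 of 3, where 3.06% were. In neutrophil-like cells *Atf1* and *Map2k2* had ratios of 1.25 and 1.06, and *Mapkapk2*, *Elk4* and *Map2k3* were lowest, at 0.724, 0.843 and 0.877. In monocyte-like cells *Atf1*, *Map2k2* and *Creb1* were highest, at 1.09, 0.994 and 0.986, and *Mapkapk2* was lowest, at 0.682, with *Map2k3* at 0.893.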

How the data were processed

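Bone marrow cells of 1 WT and 1 Cko mouse were analysed. Per the labels, the authors used version 2 of the Chromium 3′ kit and counted reads with Cell Ranger on GRCm38; the version is not given in the sources used here. The deposited values are counts of UMIs, whole numbers that were not normalized, by gene and barcode (56382459 UMIs in the WT, 34447224 in the Cko). The authors' column of sums and row of totals were dropped. No listed gene had a maximum under 4 UMIs per cell, so a gene missing from a library was not taken as 0.

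Cells with at least 200 genes were kept (16 WT and 8 Cko barcodes left out). Scrublet (scanpy 1.11.5, with 5% doublets expected) marked doublets, which were kept. Both libraries were clustered together in Seurat 5.3.0 (R 4.3.3) on the shared genes, with 2000 variable genes, 20 principal components, 20 neighbours and resolution 0.8, mitochondrial and ribosomal shares regressed out as in the study's methods, and the 8 genes and the response and heat shock lists left out. A cluster was named "-like" from at least 3 markers, and left unnamed where another type had more markers among its 10 leading genes or over 25% of its cells were called as doublets. Names were rebuilt and may differ from the study's.

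Ratios are Cko over WT of UMIs over UMIs of the class, for genes with at least 100 UMIs over both libraries, with exact conditional intervals. Levels have exact Poisson and shares exact binomial intervals. UMIs per cell type cannot tell fewer molecules per cell from fewer expressing cells. No test was made, as there was 1 library from each genotype. Ratios were called by size, at 1.5-fold. The intervals were tested on simulated data. The cut of 4 *Fos* UMIs was chosen after seeing the data. The genes named are the 8 members, *Mbtps1*, the 3 highest and 3 lowest ratios of each response list in neutrophil-like and monocyte-like cells, and the 3 genes most like *Fos*, *Jun* and *Junb* in level (log2 of CPM plus 1). The ratios of 1 gene of the MAP kinase list are not reported here. Genes named outside this rule are checks of labels and markers, or were chosen after their values were seen (among them the genes named in cells with 4 or more *Fos* UMIs and the response genes named in other cell types). The members and lists were chosen with earlier results of these data known. Promoters are RefSeq's on GRCm38.p6. Intervals were computed in scipy 1.17.1 and figures drawn in matplotlib 3.10.9, under Python 3.11.15.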

Additional observations from a re-analysis of the deposited data

Results flagged for a closer look

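*Dusp1* and *Fos* moved in opposite directions between the libraries in different cell types. *Dusp1* was higher in the Cko in mature neutrophil-like cells (log2 ratio 2.82) and lower in erythroid-like stage 1 (-0.92). *Fos* was higher in the Cko in granulocyte-monocyte progenitor-like cells (1.85) and in immature neutrophil-like cells (1.47), and lower in erythroid-like stage 1 (-3.26). The difference between cell types was not tested, since each genotype had 1 library. The *Fos* values rest on few cells, with 12 progenitor-like, 8 immature neutrophil-like and 9 stage 1 cells of 4 or more *Fos* UMIs over both libraries.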

How the results depend on the processing

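Values here are log2 ratios of Cko over WT. With the classes as described, the summed 8 genes were at 0.42 in neutrophil-like, 0.15 in monocyte-like, 0.13 in B cell-like and -0.20 in erythroid-like cells, and 4, 0, 0 and 1 members passed 1.5-fold. At resolution 0.4 monocyte-like cells gave 0.54 and 3 members. With the libraries clustered separately the sums were 0.25 in neutrophil-like cells, 1.56 with 6 members in monocyte-like cells, -0.19 with 1 member in B cell-like cells and -0.031 in erythroid-like cells, so the B cell-like sum changed sign. Classes from marker scores gave 0.47 and 2 members in monocyte-like cells, and -0.027 and 0 members in erythroid-like cells. Taken as UMIs per cell the sums were 0.53 in neutrophil-like cells, 0.56 with 1 member in monocyte-like cells, 0.47 with 2 in B cell-like cells and 0.15 in erythroid-like cells, where the sign changed. That scaling moved the median of all genes by 0.11 to 0.42. Centring on the median of all genes gave 1 member in monocyte-like cells and -0.073 in erythroid-like cells, and moved B cell-like values by 0.10 and erythroid-like values by 0.13. The mean of the members' own log2 ratios was 1.25 in neutrophil-like and -0.38 in erythroid-like cells. A higher limit on UMIs, 3 times that used, left 0 members past 1.5-fold in neutrophil-like and in erythroid-like cells, since fewer genes reach it.

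Without cells of 4 or more *Fos* UMIs, chosen after seeing the data, neutrophil-like cells gave 0.26 for the sum and -0.35 for *Fos* in place of 1.68, and monocyte-like cells 1 member. Leaving out cells with 1% or more hemoglobin UMIs was also chosen after seeing the data. *Dusp1* and *Phlda1* in neutrophil-like cells passed 1.5-fold in 13 of 13 alternatives, at 1.2 to 2.91 and 1.42 to 1.64, and *Junb* in 12 of 13 (lowest 0.29, libraries clustered separately). *Btg2* in neutrophil-like cells was at -0.35 with the libraries clustered separately, and in erythroid-like cells at 0.12 as UMIs per cell. *Fos* in erythroid-like cells passed 1.5-fold in 10 of 12 alternatives, and was at -0.084 with the libraries clustered separately. Of 280 values of single genes, 238 moved by less than their counting interval, 41 by more, and 1, *Fos* above, changed sign as a called value. Apart from the construction of each alternative, the cause of these changes was not tested.

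No paired analysis was possible because each genotype had 1 library. For the same reason no library was left out in turn, and genotype cannot be told apart from mouse, preparation and sex. Depth limits *Egr1* and *Jun* in neutrophil-like cells, which held too few UMIs for a ratio to be read.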
